A study of Caenorhabditis elegans with 2 samples.

Results

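Binding of AHA-1 was examined at 10 genes of the oxygen-sensing neurons of the nematode Caenorhabditis elegans: the soluble guanylate cyclase genes gcy-31 to gcy-37, npr-1, glb-5 and flp-8. The genes were taken by name out of 19973 protein-coding genes, as a list of oxygen-sensing neuron genes placed downstream of AHR-1. The list includes gcy-31 and gcy-33, which belong to the BAG neurons. Whether AHR-1 acts on any of the 10 genes was not tested. A region belonged to a gene when its summit lay between 2 kb upstream of the outermost annotated start and the end of the gene. By that rule 28 of 30000 regions of the deposited pooled list belonged to the 10 genes. None of them was among the 530 peaks that the authors kept after thresholding on irreproducible discovery rate (IDR), a measure of agreement between replicates.

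The data were chromatin immunoprecipitation sequencing (ChIP-seq) peak lists from whole first-stage (L1) larvae of strain OP124, genotype unc-119(ed3) III; wgIs124, of mixed sex and unstated age. The strain carries an inserted fusion of enhanced green fluorescent protein to AHA-1. Both libraries, biological replicates 1 and 2, formed 1 group with this genotype, and no second strain, tissue or condition was present. The labels do not give the promoter or copy number of the transgene or how the replicates were grown. The replicate 1 list held 24611 regions and the replicate 2 list 18195, with fragment sizes given as 150 to 350 bp. Signal is the score that the authors' peak caller gave each region relative to a control. Its scale is not stated and read depth is unknown, so values were ranked within a list and carry no counting error. Signals ran between 2.88 and 254 in the pooled list (median 4.27), between 2.00 and 167 in the replicate 1 list (median 3.16) and between 2.00 and 94.9 in the replicate 2 list (median 2.88).

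AHA-1 is the worm counterpart of mammalian ARNT, a basic helix-loop-helix PAS protein that binds DNA with a partner. With AHR-1, the aryl hydrocarbon receptor homologue, the dimer is known from work on the proteins and their mammalian relatives to recognise the core GCGTG. With HIF-1, the hypoxia-inducible factor, the core is ACGTG. AHR-1 is needed for the normal fate and gene expression of URX, AQR and PQR, neurons that respond to rising oxygen. In these cells soluble guanylate cyclases sense oxygen through a haem group and make cyclic GMP, which opens the TAX-2/TAX-4 channel. BAG neurons respond instead to falling oxygen and use gcy-31 and gcy-33. All these neurons are a handful of cells, whereas the chromatin came from the whole animal. Binding in few cells and weak binding in many cells cannot be told apart in such lists.

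The 101 bases around 6 summits are printed to show what lay under AHA-1 regions at these genes, beside the strongest peak of the pooled list. They are in gene direction on ce11 (WBcel235), were read from the RefSeq genome of that build, and have the core words GCGTG and ACGTG, on either strand, in capitals. The set takes the strongest region of gcy-37, gcy-33, gcy-36, npr-1 and glb-5, and the gcy-36 region upstream of the start. Of these 6 windows, the gcy-36 intron and npr-1 windows hold a core word and the other 4 hold none.
gcy-37 intron, chrIV:2151435-2151535, minus strand: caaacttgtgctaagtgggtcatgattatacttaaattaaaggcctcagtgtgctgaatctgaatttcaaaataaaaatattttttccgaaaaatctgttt
gcy-33 upstream, chrV:12002002-12002102, minus strand: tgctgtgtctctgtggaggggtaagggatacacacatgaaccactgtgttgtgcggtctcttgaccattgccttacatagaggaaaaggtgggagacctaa
gcy-36 intron, chrX:15485439-15485539, plus strand: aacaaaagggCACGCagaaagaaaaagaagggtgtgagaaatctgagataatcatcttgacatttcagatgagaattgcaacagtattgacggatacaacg
npr-1 upstream, chrX:4770900-4771000, minus strand: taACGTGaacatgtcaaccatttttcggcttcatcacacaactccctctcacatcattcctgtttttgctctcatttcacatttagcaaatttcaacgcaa
glb-5 upstream, chrV:5558496-5558596, plus strand: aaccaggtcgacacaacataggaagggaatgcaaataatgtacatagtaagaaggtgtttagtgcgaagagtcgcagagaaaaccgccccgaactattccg
gcy-36 upstream, chrX:15478563-15478663, plus strand: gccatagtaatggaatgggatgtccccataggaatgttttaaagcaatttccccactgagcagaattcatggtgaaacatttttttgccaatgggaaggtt
Strongest peak of the pooled list, chrV:10466735-10466835, plus strand: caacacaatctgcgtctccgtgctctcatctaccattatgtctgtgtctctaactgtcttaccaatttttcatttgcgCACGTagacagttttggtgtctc

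Promoters of 300 bases, running between 250 bases before the outermost start and 50 after it, are printed for gcy-32 and flp-8 because GCGTG was found in them. The capitals again mark GCGTG or ACGTG on either strand.
gcy-32, chrV:13915441-13915740, minus strand: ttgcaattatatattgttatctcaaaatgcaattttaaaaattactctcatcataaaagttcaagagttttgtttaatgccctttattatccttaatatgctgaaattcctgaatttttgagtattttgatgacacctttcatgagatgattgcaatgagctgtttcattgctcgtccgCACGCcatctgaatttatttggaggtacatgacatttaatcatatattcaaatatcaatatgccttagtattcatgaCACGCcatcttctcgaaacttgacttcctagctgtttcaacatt
flp-8, chrX:14881169-14881468, plus strand: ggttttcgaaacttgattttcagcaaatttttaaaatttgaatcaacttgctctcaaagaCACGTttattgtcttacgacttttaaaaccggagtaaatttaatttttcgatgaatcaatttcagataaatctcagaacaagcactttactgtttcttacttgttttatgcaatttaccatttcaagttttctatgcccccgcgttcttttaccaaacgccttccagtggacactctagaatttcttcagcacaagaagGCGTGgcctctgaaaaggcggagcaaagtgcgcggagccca

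All 10 genes had at least 1 pooled region in their windows, against 73.4% of all protein-coding genes. The windows of the 10 genes were long, with a median of 7684 bp against 4027 bp over all protein-coding genes. Among genes whose windows were within 10% of each member's length, the share with a region averaged 86.3% over the 10 comparisons and lay between 60.3% and 96.1%. The 28 regions compare with 22.2 for the summed means of those genes of like length. Per length, the members held 0.387 regions per kb, all protein-coding windows 0.305 and the genome 0.299. Much of the excess was at gcy-35: without it, 21 regions compare with 19.1, and gcy-31, gcy-34 and gcy-36 had fewer regions than the means of their like genes. With regions at or above the median signal alone, the order turned, to 0.124 regions per kb for the members and 0.156 for all protein-coding windows.

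**Figure D1:**
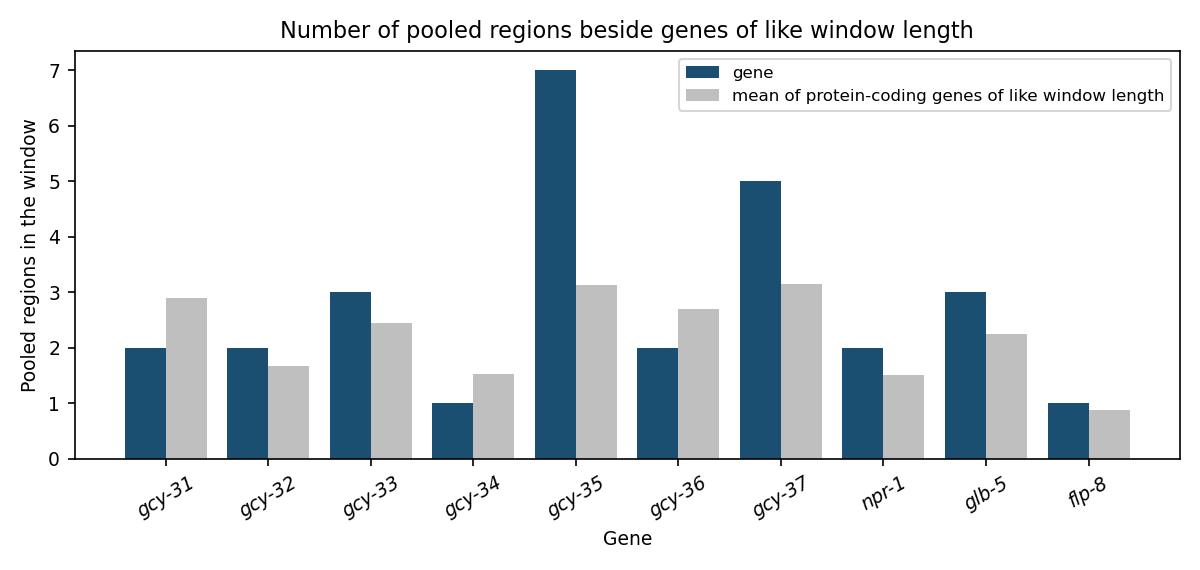
Number of regions in the window of each oxygen-sensing neuron gene (blue bars) and the mean number in genes whose windows are within 10% of the same length (grey bars), for the pooled list. The largest excess is at gcy-35, with 7 regions against 3.14, and gcy-31 lies below its mean with 2 regions against 2.91.

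The regions were weak. Their pooled signal ran between 2.90 and 8.61 with a median of 3.93, and 9 of 28 reached the median of the pooled list. The deposited −log10 q-values ran between 0.131 and 2.32 with a median of 0.348, against 3.33 for every thresholded peak. The lowest thresholded peak had a signal of 18.4, which is 2.13 times that of the strongest member region, in gcy-37. Thus 0 of 10 genes had a thresholded peak in the window, against 3.62% of protein-coding genes and a mean of 4.26% in genes of like length. Extending the window to 5 kb upstream still gave 0 of 10, against 5.36%.

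**Figure D2:**
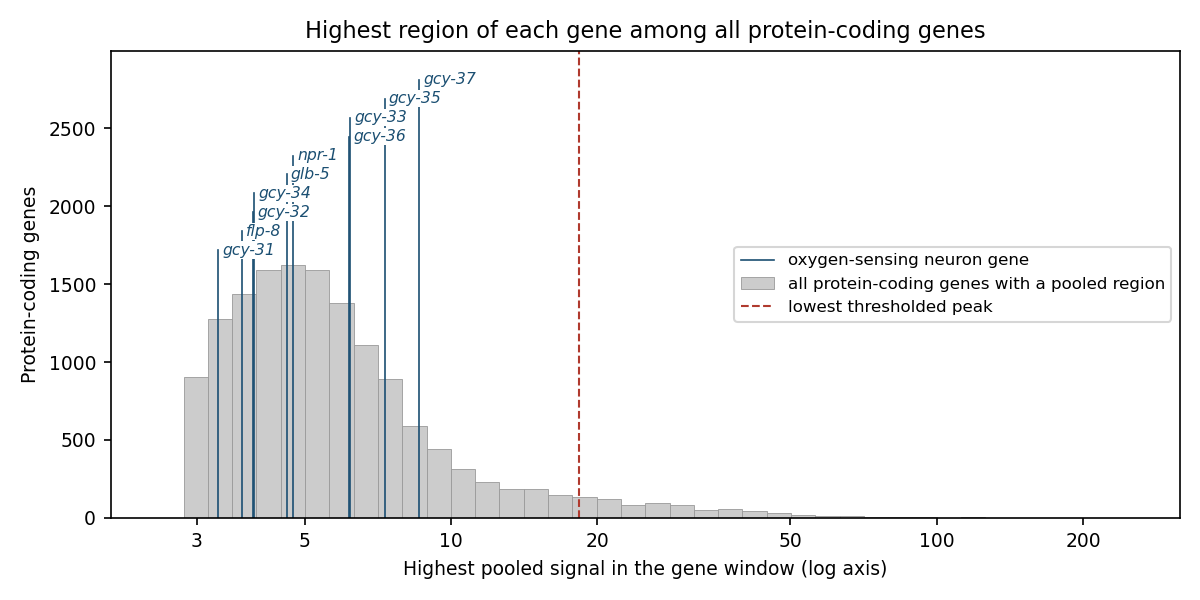
Histogram of the highest pooled signal per gene (log axis, no unit) for all protein-coding genes with a pooled region, with the 10 oxygen-sensing neuron genes as vertical lines and the lowest thresholded peak dashed. The 10 genes sit between 3.32 and 8.61, all below the dashed line at 18.4.

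By highest pooled signal within the 2 kb limit the order was gcy-37, gcy-35, gcy-33, gcy-36, npr-1, glb-5, gcy-34, gcy-32, flp-8 and gcy-31. The median of these highest signals was 4.66, against 5.19 over all protein-coding genes with a region. Of all protein-coding genes with a region, 16.5% had a higher value than gcy-37 and 90.4% a higher value than gcy-31. Among genes of like length with a region those shares were 20.1% and 94.8%, and over the 10 genes the share averaged 58.4%. With genes that have no region counted as lower, the average was 49.2%. With 1 pooled value per region, no spread can be put on this order, and neighbours such as gcy-33 (6.21) and gcy-36 (6.18), or gcy-34 (3.93) and gcy-32 (3.92), are close in value. The order also depends on the window: with 5 kb upstream npr-1 came first with 8.80, ahead of gcy-37 with 8.61, and gcy-31 had 5.71.

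**Figure D3:**
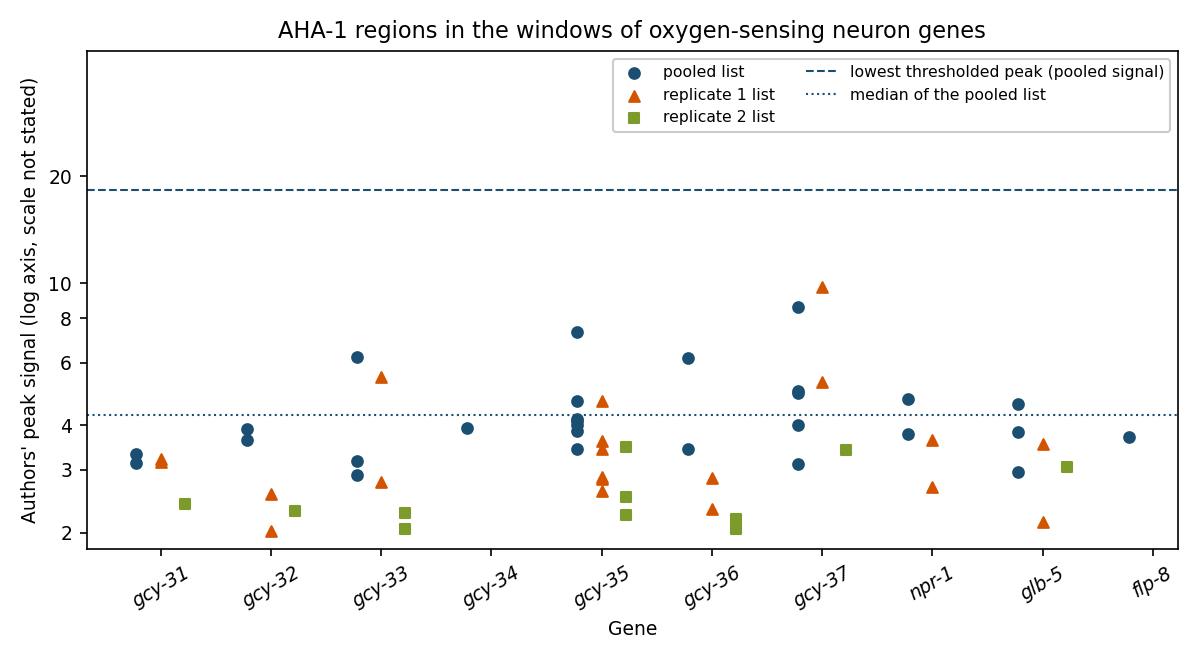
Signal of every region (log axis, no unit) in the windows of the 10 genes, in the pooled, replicate 1 and replicate 2 lists, with the lowest thresholded peak (dashed) and the pooled median (dotted). The highest points belong to gcy-37, with 8.61 in the pooled list and 9.80 in replicate 1, while gcy-34 and flp-8 have points in the pooled list only.

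Among the cyclases of the URX, AQR and PQR neurons, gcy-37 held the strongest member region. The gene (WBGene00001557, chrIV:2150647-2159169, minus strand) had 5 pooled regions, all in the gene body between 3099 and 7684 bp downstream of the start. The strongest lay in an intron at chrIV:2151327-2151642 with a signal of 8.61, rank 2186 of 30000. It was listed in replicate 1 with 9.80 (rank 855) and was absent from the replicate 2 list. An intron region 3099 bp from the start had 4.91 and was also listed in replicate 1 alone, with 5.30. A coding-exon region of 4.01 was listed in replicate 2 alone, with 3.41. Regions of 5.01 and 3.11 were in neither replicate list, so no gcy-37 region was shared by the replicates. The summits of 4 of the 5, including the strongest, were nearer to the start of C54E4.5 than to that of gcy-37.

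At gcy-35, whose product has been shown to bind oxygen through its haem, 7 pooled regions lay in a window of 10.284 kb. The gene (WBGene00001555) is on the plus strand of chromosome I, from 13325230 to 13333513. The strongest region was in an intron 2587 bp from the start, with a pooled signal of 7.31 (rank 3457) and 4.67 in replicate 1 (rank 4884), and was not listed in replicate 2. The 5′ UTR region, 110 bp from the start, had 4.02 in the pooled list and met 2 regions of replicate 1, of 2.83 and 2.61. Only the coding-exon region 1232 bp from the start was in both replicate lists, with 4.11 pooled, 3.43 in replicate 1 and 2.24 in replicate 2. A coding-exon region at 7717 bp had 3.86 and was listed in replicate 2 alone, with 2.52. The remaining 3 regions overlapped tRNA genes. Those at 1197 and 968 bp upstream, of 4.67 and 3.42, met the same replicate 2 region of 3.47. That at 6001 bp downstream had 4.15, with 3.61 in replicate 1, and was nearer to the start of T04D3.5 than to that of gcy-35.

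With gcy-35, gcy-36 is needed for behavioural responses to high oxygen. It lies at chrX:15479017-15485711 on the plus strand (WBGene00001556) and had 2 pooled regions. The stronger, chrX:15485331-15485646, was in an intron 6472 bp from the start with a signal of 6.18 and had 2.85 in replicate 1 (rank 14927). The closest annotated start was that of H13N06.2, and the region was absent from replicate 2. The weaker, chrX:15478455-15478770, lay 404 bp upstream with 3.43 in the pooled list, 2.33 in replicate 1 and 2.05 in replicate 2. This was the only 1 of the 28 regions whose summits in both replicates lay within 100 bp of the pooled summit.

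For gcy-32 and gcy-34, also cyclases of URX, AQR and PQR, a region near the start was found at both. The gcy-32 gene (WBGene00001552, chrV:13912080-13915490, minus strand) had a region 165 bp upstream at chrV:13915497-13915812, with 3.63 in the pooled list, 2.56 in replicate 1 and 2.30 in replicate 2. Its other region, in a coding exon 1690 bp downstream, had 3.92 in the pooled list and 2.02 in replicate 1, and none in replicate 2. The gcy-34 gene (WBGene00001554, chrV:13383019-13385898, minus strand) had 1 region, 76 bp downstream of the start, with 3.93, and it was in neither replicate list. The 5 cyclase genes of these neurons thus had between 1 and 7 regions each.

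The BAG cyclases had unlike top signals, 6.21 at gcy-33 and 3.32 at gcy-31. At gcy-33 (WBGene00001553, chrV:11995805-12001797, minus strand) a region 255 bp upstream, chrV:12001894-12002209, had 6.21 in the pooled list (rank 5544) and 5.47 in replicate 1 (rank 3189). It overlapped a tRNA gene and the non-coding RNA gene F57F5.7, and was not listed in replicate 2. Its 2 intron regions had 3.18, with 2.77 in replicate 1, and 2.90, listed in neither replicate. At gcy-31 (WBGene00001551, chrX:2419955-2427504, minus strand) both regions were far inside the gene. An intron region 3011 bp from the start had 3.14, with 3.16 in replicate 1, and a 3′ UTR region had 3.32, was listed in neither replicate and was nearer to the start of glr-7. gcy-31 had no pooled region upstream or near its start. The replicate lists each held an upstream region that did not coincide, with 3.21 at 437 bp in replicate 1 and 2.40 at 1569 bp in replicate 2.

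**Figure D4:**
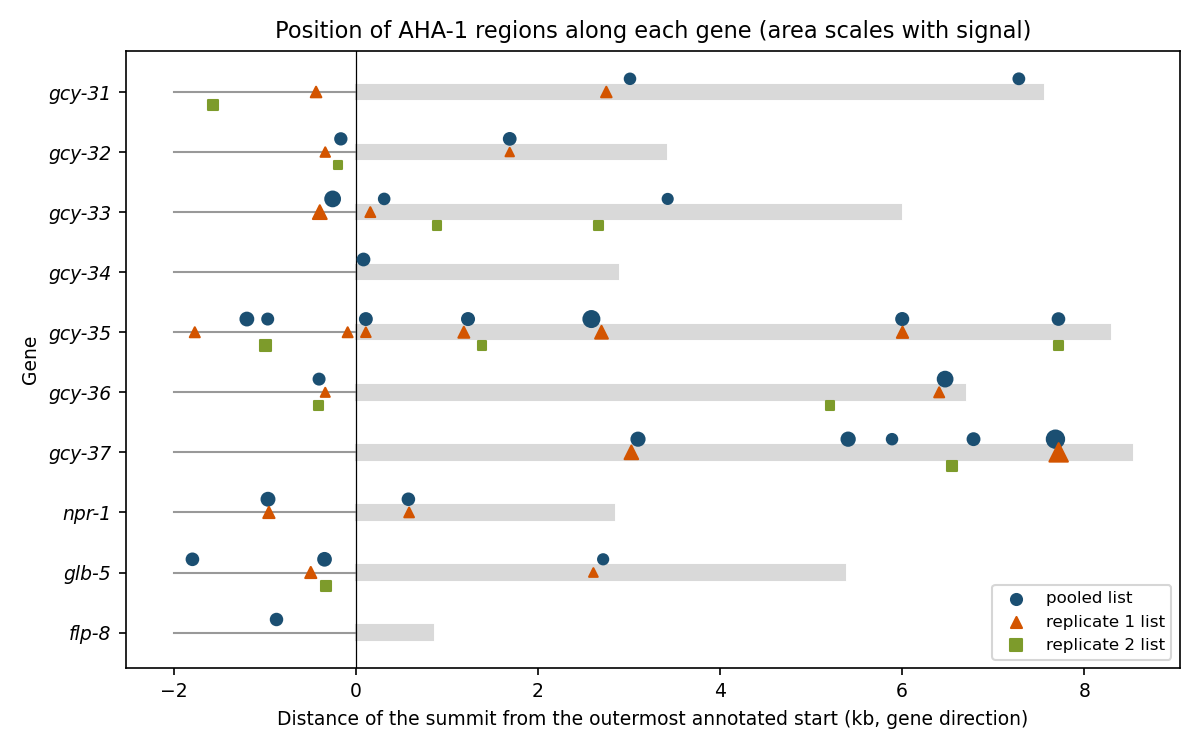
Positions of region summits along the 10 genes, in kb from the outermost annotated start in gene direction, for the pooled (circles), replicate 1 (triangles) and replicate 2 (squares) lists, with marker area proportional to signal and gene bodies in grey. Upstream regions at gcy-32, gcy-36 and glb-5 have markers of all 3 lists close together, while the largest markers of gcy-37 lie over 7 kb inside the gene.

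The other genes act beside the cyclases. npr-1 encodes a neuropeptide receptor that sets aggregation and oxygen responses (WBGene00003807, chrX:4767152-4769985, minus strand). Its region 965 bp upstream, chrX:4770792-4771107, had 4.74 in the pooled list and 3.63 in replicate 1, and an intron region had 3.78 and 2.68. Neither was in replicate 2, whose list had no region in the npr-1 window. glb-5 encodes a haem-binding globin that tunes the oxygen response (WBGene00015964, chrV:5558890-5564263, plus strand). Its region 344 bp upstream, chrV:5558388-5558703, had 4.59 in the pooled list, 3.53 in replicate 1 and 3.06 in replicate 2. It was the only top region of the 10 genes listed in both replicates. The other glb-5 regions had 3.84, in neither replicate, and 2.95, with 2.15 in replicate 1. All 3 glb-5 regions lay inside the overlapping gene C18C4.7, so they cannot be given to glb-5 alone. flp-8 encodes FMRFamide-like peptides (WBGene00001451, chrX:14881419-14882267, plus strand), and its only region, 876 bp upstream, had 3.72 and was in neither replicate list.

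The replicate lists shared few of these regions. In replicate 1, 8 of 10 genes had a region in the window, against 66.1% of protein-coding genes. In replicate 2, 7 of 10 had one, against 58.2%. No replicate 1 region was found at gcy-34 or flp-8, and no replicate 2 region at gcy-34, npr-1 or flp-8. In all, the replicate 1 list held 20 regions in the 10 windows and the replicate 2 list 11. Of the 28 pooled regions, 4 were listed in both replicates, 13 in replicate 1 only, 4 in replicate 2 only and 7 in neither. Among the 27462 pooled regions in the same range of signal, 10.9% were in both lists, against 14.3% of the member regions. For replicate 1 alone, 17 of 28 (60.7%) were listed, against 50.6%, and for replicate 2, 8 of 28 (28.6%), against 35.3%. The 4 shared regions gave 4 of 10 genes (gcy-32, gcy-35, gcy-36 and glb-5) a region in both replicates, against 20.7% of protein-coding genes and a mean of 27.9% in genes of like length. These counts rest on an overlap of at least 1 bp. With summits within 100 bp, 1 of 28 regions (3.57%) was in both replicates, against 3.89% of pooled regions in the same range of signal, and 1 of 10 genes had one, against 12.7%.

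Upstream sequence held 9 of the 28 regions, introns 11, coding exons 6 and each kind of UTR 1. The upstream share of 32.1% compares with 43.7% over all protein-coding windows. Per length the members' 2 kb upstream held 0.45 regions per kb and their bodies 0.363, against 0.348 and 0.278 over all genes. A region lay in the 2 kb upstream of 7 of 10 genes, against 52.5%. In a narrower window around any annotated start (1000 bp before it and 200 bp after it), 8 of 10 genes had a region, against 43.3%. Only gcy-31 and gcy-37 had none there. A pooled region overlapped the 300-base promoter of 6 of 10 genes, against 25.2%. Thus a region lay near a start in a larger share of these 10 genes than of all genes, a comparison not matched for signal. The count around any annotated start was also not matched for the number of starts per gene. Near-start regions of gcy-32, gcy-34, gcy-35, gcy-36 and flp-8 were below the pooled median of 4.27, and those of gcy-33, npr-1 and glb-5 above it. Those of gcy-34 and flp-8 were in neither replicate list. The strongest regions of gcy-37, gcy-35 and gcy-36 were deep in the gene.

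Some pooled regions overlapped tRNA genes, though their pooled summits lay outside them. The replicate 1 summit 396 bp upstream of gcy-33 and the replicate 2 summit 990 bp upstream of gcy-35 lay inside tRNA genes. Of the 28 regions 4 overlapped a tRNA gene, 1 at gcy-33 and 3 at gcy-35, against 205 of 30000 pooled regions (0.683%). They include the strongest gcy-33 region, and 2 of the gcy-35 regions share a tRNA gene, so the 4 regions meet 3 tRNA genes. Whether the signal there belongs to the tRNA genes or to gcy-33 and gcy-35 was not tested.

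Core words were sought within 50 bp of each summit. GCGTG was found in 1 of 28 member regions (3.57%), the intron region of gcy-36, against 6.83% of all pooled regions and 27.2% of thresholded peaks. ACGTG was found in 3 of 28 (10.7%), in gcy-37, npr-1 and gcy-35, against 9.23% of all pooled regions and 19.8% of thresholded peaks. Either word was in 4 of 28 (14.3%), against 15.1% of all pooled regions and 42.3% of thresholded peaks. The palindrome CACGTG, which contains ACGTG, was in none, against 1.93%, and other CANNTG words were in 10 of 28 (35.7%), against 30.9%. Within 100 bp, GCGTG was in 25% of member regions, against 12.3% of all pooled regions and 37.9% of thresholded peaks. Over whole regions GCGTG was in 11 of 28 (39.3%), against 17.5% of all pooled regions, and ACGTG in 7 of 28 (25%), against 25%. Among pooled regions in the same range of signal, GCGTG was in 5.85% within 50 bp and 11.1% within 100 bp. The GCGTG share of member regions was thus near the background within 50 bp and above it in the wider windows, on counts of 1, 7 and 11. The GC content of member regions had a median of 36.9%, against 34.8% of all pooled regions and 41.1% of thresholded peaks.

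**Figure D5:**
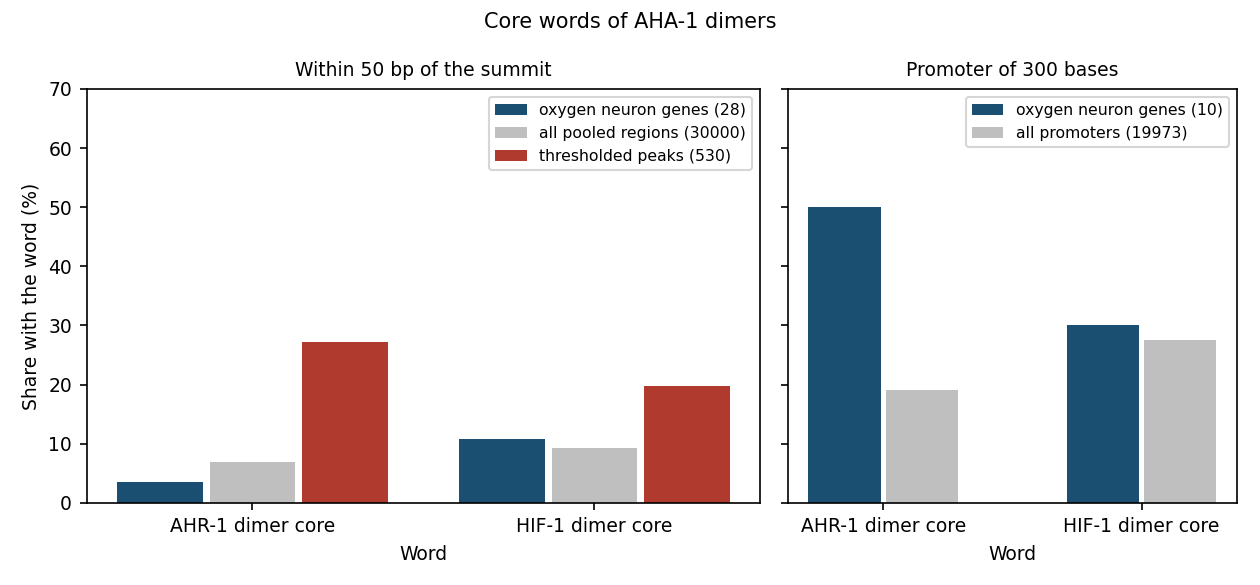
Percentage of sequences that hold the core of the AHR-1 dimer (GCGTG) or of the HIF-1 dimer (ACGTG) on either strand, for member regions, all pooled regions and thresholded peaks within 50 bp of the summit, and for promoters of 300 bases. Among promoters the GCGTG share is 50% for the 10 genes and 19.1% for all protein-coding genes.

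Promoters were searched for the same words. GCGTG was in the 300-base promoter of 5 of 10 genes, against 19.1% of all protein-coding promoters. In gcy-32 a word lay 71 bases upstream, and in gcy-32, gcy-35 and flp-8 a word lay just downstream of the start. ACGTG was in 3 of 10, against 27.6%, among them gcy-31, 111 bases upstream, and flp-8, 190 bases upstream. Over the whole 2 kb upstream the gap was small, with GCGTG in 8 of 10 genes against 65.9% and a mean of 1.4 copies against 1.23. ACGTG averaged 2.6 copies against 2.29. The GC content of these 2 kb had a median of 34.1%, against 34.9% over all genes.

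Promoters with and without the word were set beside the lists. Of the 5 members with GCGTG in the promoter, a pooled region overlapped it in 3, gcy-32 and gcy-35 among them,. Of the 5 without it, a pooled region overlapped the promoter in 3 as well. Over all protein-coding genes, 31.0% of the 3807 promoters with GCGTG and 23.8% of the 16166 without it met a pooled region. For thresholded peaks the shares over all genes were 3.49% with GCGTG and 1.49% without, and the 10 members, which have no such peak, add nothing to that comparison. The flp-8 promoter holds both words and had no pooled region on it. A match of letters is a description of the sequence and not a measured site.

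The nearest thresholded peaks lay outside these genes. Their median distance from the 10 outermost starts was 85773 bp, against 75500 bp over all protein-coding genes. The closest was 5917 bp downstream of the gcy-32 start, past the end of that gene, with a signal of 19.4, and C06B3.7 had the nearest start. The next was 18549 bp upstream of gcy-37, with 23.0, at hrpu-2. That nearest npr-1, 39910 bp upstream, had 18.4 and was the weakest of the 530. The farthest was 297381 bp upstream of gcy-36. Thus 0 of the 10 genes had a thresholded peak in the window. With 3.62% of all protein-coding genes having one, that count does not set the 10 genes apart.

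Related gene families were described in the same way, beside the 73.4% of all protein-coding genes with a pooled region and the 3.62% with a thresholded peak. The globin, peptide and npr families include glb-5, flp-8 and npr-1. Among 26 receptor guanylate cyclases, 23 (88.5%) had a pooled region and 0 a thresholded peak, and the highest signals were 10.2 at gcy-28 and 8.38 at gcy-9. Of 34 globins, 25 (73.5%) had a region and none a thresholded peak, with 10.9 at glb-34 and 10.4 at glb-10. FMRFamide-like peptide genes had a region in 27 of 31 (87.1%), with 8.68 at flp-18 and 8.10 at flp-32. Genes named npr had one in 40 of 43 (93.0%), with 16.0 at npr-23 and 10.8 at npr-16. Neither of these 2 families had a thresholded peak. A region listed in both replicates was found at 3 of the 7 soluble cyclases (42.9%), against 20.7% of all protein-coding genes. It was found at 5 of 26 receptor cyclases (19.2%), 6 of 34 globins (17.6%), 0 of 31 peptide genes and 6 of 43 npr genes (14.0%). The families' median windows ran between 3186 bp for the peptide genes and 8695 bp for the soluble cyclases, and these counts were not matched for length. Medians of the highest signals were taken over genes with a region alone. They were 6.18 for the 7 soluble cyclases, 5.27 for the receptor cyclases, 5.44 for the globins, 3.74 for the peptide genes and 4.74 for the npr genes. Over all protein-coding genes with a region the median was 5.19.

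Of 14 genes of cyclic GMP signalling, which include gcy-35 and gcy-36, all had a pooled region, against 73.4% of all protein-coding genes, and 1 (7.14%) had a thresholded peak, against 3.62%. Their windows were long, with a median of 8762 bp against 4027 bp over all genes. A region listed in both replicates was found at 7 of the 14 (50%), against 42.9% of the soluble cyclases and 20.7% of all protein-coding genes. The thresholded peak was at pkg-2, a cyclic GMP-dependent protein kinase gene, with a signal of 18.7 (rank 509) in a window of 19294 bp. The median of the highest signals over the 14 genes was 6.52, against 5.19 over all protein-coding genes with a region. The channel genes on which these neurons depend were below both, with 2.89 at tax-2 and 3.79 at tax-4. In the replicate lists tax-2 had 4.22 in replicate 1 and no region in replicate 2. The tax-4 window had 2.31 in replicate 1 and 3.77 in replicate 2. Of 8 genes for neuron fate or AHR-1 partners, 7 (87.5%) had a region and 2 (25%) a thresholded peak, against the same 73.4% and 3.62%. Both peaks were at AHR-1 partners, and neither ahr-1 nor any fate gene of the list had one. The list was chosen with earlier results of these data known, so the 25% does not test it. A region listed in both replicates was found at 3 of the 8 (37.5%). The signals of the 2 thresholded peaks were 51.4 at hsp-90, whose mammalian counterpart holds the aryl hydrocarbon receptor in the cytoplasm, and 27.3 at aha-1 itself. The highest signals in the aha-1 window were 24.7 in replicate 1 and 3.78 in replicate 2. The strain also carries an inserted aha-1 fusion, and its part in the aha-1 signal was not tested. ahr-1 had 6.91, and ets-5, a fate factor of BAG neurons, had 9.85. unc-86, which specifies neurons including URX, had 3.96, and ceh-36 had no region. The remaining genes of the list, lin-32 and egl-13, had 6.67 and 5.20. The median of the highest signals was 6.91 over the 7 genes with a region.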

How the data were processed

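The authors deposited narrowPeak lists for each replicate, for both pooled, and after IDR thresholding, per the labels and the descriptive text with the samples. Lists on ce11 were used. The aligner, caller, IDR threshold and depth are not given in the sources used here, and the control was not analysed here. The deposited signal of each region has no stated scale, and the −log10 q-values are likewise the authors' values. Ranked by signal, the top 530 of the pooled list are the thresholded list, and the next region had 18.3.

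Coordinates are 1-based. Genes came from Ensembl release 115 on 6 chromosomes. The RefSeq WBcel235 sequence was checked against it: 31769 of 31805 annotated start codons read ATG. A pooled region counted as listed in a replicate where both overlapped by at least 1 bp. Words were sought on both strands. Python 3.11.15, numpy 2.4.6 and pandas 2.3.3 were used, and the assignment code was tested on simulated data. With 1 group no test was made: counts stand beside the same over all protein-coding genes, pooled regions or promoters. Members and lists were chosen with earlier results of these data known, and the comparison with genes of like length was added after seeing the data. Named genes were all members, the nearest starts and overlapping genes, and from each list those with a thresholded peak or else the 2 highest. The genes tax-2, tax-4, ahr-1, ets-5, unc-86, ceh-36, lin-32 and egl-13 were named after their values were seen. Of the list symbols 1, an older name, matched no gene. Some promoter sequences are not reported here.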

Additional observations from a re-analysis of the deposited data

How the results depend on the processing

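All 10 genes had a pooled region with 1 kb upstream (64.8% of all genes), 5 kb upstream (87.7%), any overlap of the region (75.7%) and the nearest start alone (67.4%), and 8 did in the promoter window (43.3%). Counting only regions at or above the median signal of the list left 6 genes, against 50.7% of all, and 0.124 regions per kb, against 0.156 over all protein-coding windows. Leaving out 1 replicate gave 7 genes without replicate 1 (58.2%) and 8 without replicate 2 (66.1%). The count with a thresholded peak was 0 under every alternative run. The density was 0.417 per kb with 1 kb upstream, against 0.305 over all genes, and 0.352 with 5 kb, against 0.302. Asking for summits within 100 bp left 1 region in both replicates, in place of 4 (3.57%, against 3.89% of pooled regions of like signal). A core word was in 11 of 28 regions within 100 bp of the summit (39.3%, against 26.6% of all pooled regions) and in 16 over whole regions (57.1%, against 37.3%). With 5 kb upstream the highest signal became 5.71 at gcy-31, 4.56 at gcy-34, 8.80 at npr-1, which then ranked first, and 5.55 at glb-5, and that of the other 6 genes did not move. No paired analysis was possible because both replicates belong to 1 group. Depth is unknown, so a region missing from a replicate list does not show that AHA-1 was absent there, and 10 genes with 28 regions limit every share.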
